A study of Mus musculus with 36 samples.

Results

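Glucokinase regulatory protein (GKRP, gene Gckr) is the liver protein that binds glucokinase (GK) and holds it in the nucleus when glucose is low. The comparison described here was between mouse hepatocytes given an adenoviral vector for mouse GKRP with leucine at residue 446 (the mL vector) and hepatocytes given no vector, both with endogenous GK only. It rested on 9 of the 36 RNA-sequenced cultures of the series, chosen by the treatment in their labels. They were 3 cultures with the mL vector, 1 from each of 3 mice, and 6 untreated cultures, 2 from each mouse. The female mice were of the GCKR-P446L-EMI-B6N strain and 14 weeks old. The labels give mice 1 and 2 the genotype Gckr-446L and mouse 3 Gckr-446P/L, and describe the hepatocytes as deficient in GKRP. After plating, hepatocytes received the vector or no vector, and then 10 nM dexamethasone and 10 nM insulin overnight. They were cultured for 24 h in all and then incubated for 4 h with 25 mM glucose. The other conditions used here, from the same 3 mice, were the mP vector (mouse GKRP with proline at residue 446), the hL and hP vectors (the human forms), the GK vector alone, and the mL vector with the GK vector. No sample analysed here had an empty vector, so the effects of the adenovirus and of GKRP-446L cannot be told apart against untreated hepatocytes.

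The deposited read counts were summed to genes, and the 2 untreated cultures of a mouse were combined, so that each condition had 3 samples, 1 per mouse. CPM here is a read count divided by its TMM-adjusted library total, on the usual scale. Levels are in CPM and changes are log2 fold changes with their standard error (SE). A gene was called higher with a ratio of its levels of 1.3 or more, or lower with 0.7 or less, where its adjusted p was also below 0.05. The p came from edgeR's quasi-likelihood F test with the mouse in the model, adjusted over 12177 genes. The 9 libraries held between 3924674 and 7678682 reads. The 6 hepatocyte markers summed to between 88800 and 122000 CPM in untreated and between 94800 and 131000 CPM in mL cultures. Of other liver cells, the 12 macrophage markers summed to between 281 and 355 CPM in untreated and between 281 and 319 CPM in mL cultures, and the 8 endothelial markers to between 72.2 and 110.0 CPM and between 76.6 and 106 CPM. The 9 stellate cell markers summed to between 33.1 and 125 CPM and between 31.3 and 116 CPM, and the 6 bile duct markers to between 20.4 and 269 CPM and between 15.7 and 172 CPM, with Krt7 at 0 in the mL cultures. None of the markers tested was called changed. In bulk cultures fewer cells of a type and less RNA per cell cannot be told apart.

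DNA is replicated once per cell cycle. In G1 the origin recognition complex, with Cdc6 and Cdt1, loads the Mcm helicase onto origins. Cyclin E with Cdk2, the kinase Cdc7, Cdc45 and the Gins proteins then fire these origins, and many genes of these factors are targets of E2F transcription factors. Hepatocytes of the adult liver are mostly quiescent. Heat shock chaperones fold proteins and are targets of the factor Hsf1 under stress, and Atf4 drives genes of amino acid supply.

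Replication genes were the largest group among the increases described below, and RefSeq promoter sequences (GRCm38.p6) of 4 of them are shown first. Promoters were searched from 250 bases before to 50 after the start for the E2F-type letters TTTCCCGC, TTTGGCGC, TTTCGCGC and TTTGCCGC on both strands. Of the 75 promoters found for 56 of 66 called replication genes 32% held a match, compared with 17.4% of 305 promoters of all genes called higher, 4.03% of 11467 promoters of genes tested and 2.26% of all 32851 promoters. Among 57 promoters of replication genes that were tested but not called higher the share was 17.5%. A match is a description of the letters and not a shown binding site. The 250 bases before the start follow, 5′ to 3′, with the matches in capitals. Mcm6 (chr1:128359706-128359955, minus strand) had 3 matches, of which the first and second overlap. Mcm5 (chr8:75109259-75109508, plus strand) had 2 overlapping matches. Orc1 (chr4:108579204-108579453, plus strand) had a match that starts 27 bases before the start site, and Uhrf1 (chr17:56304063-56304312, plus strand) had one that starts 185 bases before it.
Mcm6: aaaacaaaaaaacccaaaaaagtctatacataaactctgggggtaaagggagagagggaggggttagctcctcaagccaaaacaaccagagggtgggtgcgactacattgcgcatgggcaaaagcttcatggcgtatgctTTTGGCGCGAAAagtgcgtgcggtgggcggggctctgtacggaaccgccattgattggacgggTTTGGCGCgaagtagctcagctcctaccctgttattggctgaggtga
Mcm5: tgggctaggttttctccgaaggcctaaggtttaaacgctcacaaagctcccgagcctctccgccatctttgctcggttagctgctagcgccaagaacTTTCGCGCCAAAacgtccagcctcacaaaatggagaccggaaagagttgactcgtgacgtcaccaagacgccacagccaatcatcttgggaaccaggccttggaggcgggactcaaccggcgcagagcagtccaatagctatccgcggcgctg
Orc1: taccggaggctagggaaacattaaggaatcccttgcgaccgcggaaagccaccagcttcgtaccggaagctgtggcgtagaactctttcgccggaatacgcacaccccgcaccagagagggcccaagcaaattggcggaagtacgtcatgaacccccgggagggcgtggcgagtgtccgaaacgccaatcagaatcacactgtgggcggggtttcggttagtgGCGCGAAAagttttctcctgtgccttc
Uhrf1: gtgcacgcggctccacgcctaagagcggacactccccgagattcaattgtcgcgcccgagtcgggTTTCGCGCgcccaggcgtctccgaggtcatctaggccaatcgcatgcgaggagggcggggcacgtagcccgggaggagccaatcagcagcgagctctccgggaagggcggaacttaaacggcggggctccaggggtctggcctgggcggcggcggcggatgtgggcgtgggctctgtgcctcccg

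The next pair of promoters belongs to stress genes that were also called higher. The heat shock element was searched as GAANNTTC, which reads the same on both strands, and stood in 6 of 10 promoters (60%) found for 6 of 8 called chaperone genes, against 8.85% of promoters of all genes called higher, 5.79% of those of genes tested and 7.86% of all promoters. These 6 came from 5 genes, since Hsph1 has a pair of overlapping promoters, and Hspa1a and Hspa1b among them are near-identical copies. The chaperone list was drawn up after its values had been seen, so the 60% only describes these genes. Promoters of chaperones without a call were not counted as a group. The amino acid response element was searched as TGATGNAA on both strands and stood in 2 of 4 promoters (50%) of called genes of the Atf4 list, against 4.26% of promoters of all genes called higher, 2.15% of those of genes tested and 3.97% of all promoters. Hspa1a (chr17:34972157-34972406, minus strand) holds the heat shock element 104 bases before the start site. Chac1 (chr2:119350992-119351241, plus strand) holds the amino acid response element 193 bases before it.
Hspa1a: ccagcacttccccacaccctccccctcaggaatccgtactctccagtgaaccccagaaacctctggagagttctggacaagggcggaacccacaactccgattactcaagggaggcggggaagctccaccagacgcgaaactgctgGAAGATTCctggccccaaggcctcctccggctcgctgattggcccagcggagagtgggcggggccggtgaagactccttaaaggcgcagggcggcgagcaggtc
Chac1: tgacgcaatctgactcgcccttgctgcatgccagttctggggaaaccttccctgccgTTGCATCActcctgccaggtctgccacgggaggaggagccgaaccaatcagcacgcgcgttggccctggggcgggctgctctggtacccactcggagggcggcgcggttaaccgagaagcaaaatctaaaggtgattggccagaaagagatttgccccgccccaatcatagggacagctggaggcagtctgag

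Gckr (ENSMUSG00000059434, chromosome 5 from 31454787 to 31484658, GRCm39), the gene carried by the vector, was 39.2, 61.2 and 70.7 CPM in untreated and 14320, 11250 and 17260 CPM in mL hepatocytes of mice 1, 2 and 3. Every mL sample was far above every untreated sample, with a log2 fold change of 8.02 (SE 0.75; edgeR adjusted p = 3.3e-07). In the mL cultures 75485, 44497 and 95522 reads were assigned to the Gckr transcript of 2272 bases, and 0, 5.12 and 0 reads to that of 2014 bases. A further 7740, 6536 and 9779 reads were assigned to the transcript of 372 bases, and 206, 4098 and 5510 to that of 604 bases. The human forms are not among the mouse reference transcripts, and with the hL vector Gckr was 73.7 ± 26.1 CPM (SD, n = 3).

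With the mL vector 303 genes (2.49% of those tested) were called higher than in untreated hepatocytes and 82 (0.673%) lower, and 301 and 81 of these moved the same way in 3 of 3 mice. As background for the statements on overlap below, the 3 mL samples lay above the 3 untreated samples in 6.21% of all genes tested and below them in 4.7%. Of the genes called higher 294 were protein-coding, 109 were at least 2-fold higher, and 66 belonged to the 7 lists of DNA replication, G1/S and mitosis genes. After Gckr, the largest called increases of protein-coding genes were those of the checkpoint kinase Chek1, cyclin E1 (Ccne1), Paqr4 (2.91, SE 0.46), cyclin E2 (Ccne2) and Uhrf1. The median log2 fold change over all genes tested was 0.00. Leaving out mouse 1, 2 or 3 gave 202, 163 and 75 genes called higher and 62, 45 and 12 called lower. Without the mouse in the model 111 and 17 genes were called, and with an offset for the effective transcript lengths 23 and 0.

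The Mcm helicase and other origin licensing genes had some of the largest increases. Mcm4 (chromosome 16 from 15440211 to 15455264, GRCm39) was 11.9, 8.85 and 13.2 CPM in untreated and 75.8, 48.3 and 76.1 CPM in mL hepatocytes of mice 1, 2 and 3. The groups did not overlap, and Mcm4 rose by 2.55 on the log2 scale (SE 0.12; edgeR adjusted p = 7.8e-12). Mcm5 was 10.5, 4.798 and 5.14 CPM in untreated and 54.7, 23.2 and 49.3 CPM in mL hepatocytes, again without overlap (2.62, SE 0.17). Mcm6 was 60.5, 88.1 and 69.9 CPM in untreated and 207, 197 and 226 CPM in mL hepatocytes (1.52, SE 0.13). The other subunits Mcm3, Mcm2 and Mcm7 rose by 2.04 (SE 0.09), 1.97 (SE 0.14) and 0.94 (SE 0.11). With the effective length offset Mcm7 (0.23) and Mcm2 (2.54) were not called, and the value of Mcm7 was the smallest of the 6 subunits. Per length, with the authors' effective lengths, which differed between libraries, Mcm6 had the highest level of the 6 in each mouse with the mL vector, at 65.2 ± 10.9 TPM (SD, n = 3). In TPM all 6 subunits were higher with mL in mice 1 and 3. In mouse 2 Mcm7 was lower with mL (36.2 TPM untreated, 27.8 mL). Mcm3 (13.0 and 13.9) and Mcm2 (3.42 and 4.32) differed little there, and Mcm4, Mcm5 and Mcm6 were higher.

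All 23 genes of the licensing list passed the filter on low counts, and 13 were called higher and 0 lower, with a median log2 fold change of 0.94. Of the origin recognition complex, Orc1 rose by 2.38 (SE 0.37) and Orc2 by 0.38 (SE 0.09). The values of Orc3 (0.07), Orc4 (-0.05), Orc5 (0.26) and Orc6 (0.58) did not pass the test. Cdt1 rose by 1.49 (SE 0.26), whereas Cdc6 (0.65, SE 0.42; edgeR adjusted p = 0.54) and Gmnn, which inhibits Cdt1 (0.51, SE 0.19; adjusted p = 0.17), were not called. Of the factors that fire origins, Gins2 rose by 1.78 (SE 0.26), Cdc45 by 1.78 (SE 0.37) and Cdc7 by 1.47 (SE 0.41), while Gins4 was at -0.06 (SE 0.22). Without mouse 1, 2 or 3 the list had 11, 10 and 7 members called higher, and with the effective length offset 4. Orc1 and Cdt1 were not called without mouse 3 (2.21 and 1.18), Orc2 without mouse 1 or 3 (0.32 and 0.33), Cdc45 without mouse 2 or 3 (1.82 and 1.3) and Cdc7 without each of the 3 mice in turn (from 1.28 to 1.54).

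**Figure D1:**
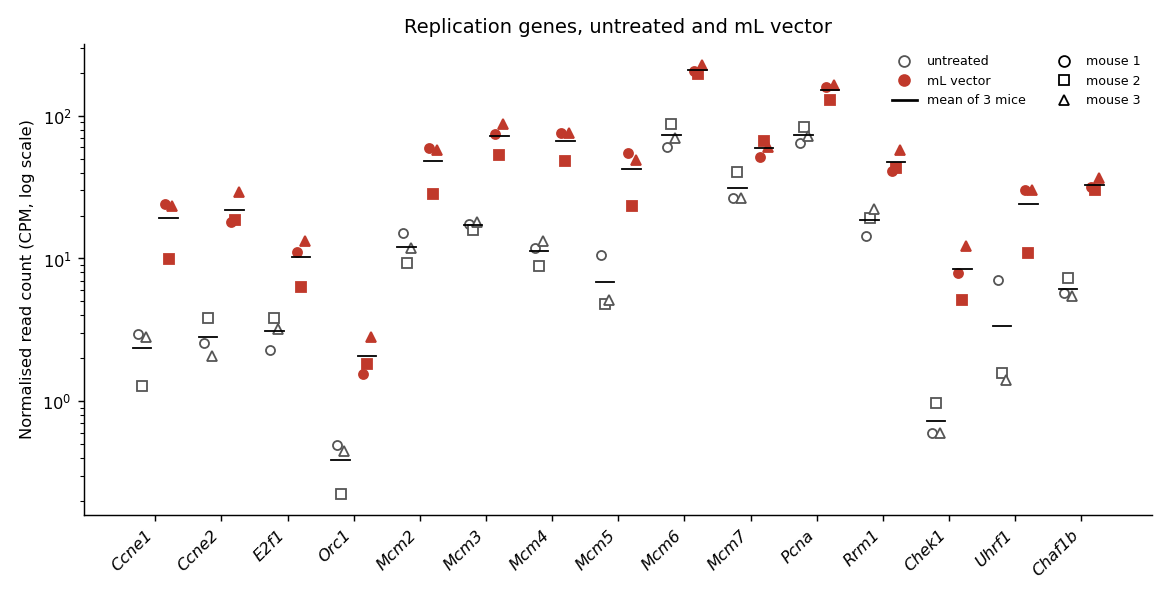
Normalised read count (CPM, log axis) of 15 replication genes in untreated hepatocytes and with the mL vector, by mouse, with the mean of 3 mice as a line. For each of the 15 genes the 3 mL samples lie above the 3 untreated samples.

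Cyclins and E2F factors of the G1/S transition were higher in part. Chek1 (chromosome 9 from 36614487 to 36638361, GRCm39), the replication checkpoint kinase, was 0.594, 0.975 and 0.596 CPM in untreated and 7.89, 5.09 and 12.3 CPM in mL hepatocytes (3.43, SE 0.35; edgeR adjusted p = 1.0e-06). Ccne1 was 2.97, 1.27 and 2.83 CPM in untreated and 24.0, 9.98 and 23.5 CPM in mL hepatocytes (3.01, SE 0.23). Ccne2 was 2.57, 3.82 and 2.09 CPM in untreated and 18.01, 18.5 and 29.1 CPM in mL hepatocytes (2.88, SE 0.31). For none of these 3 genes did the groups overlap, and mouse 2 had the lowest mL level of Chek1 and Ccne1. Cdk2, the kinase partner of cyclin E, rose by 1.27 (SE 0.08), and Cdc25a, the phosphatase that activates it, by 1.12 (SE 0.19). E2f1, an activator, rose by 1.66 (SE 0.21), and E2f8, a repressor, by 2.38 (SE 0.36). E2f7, another repressor, gave 1.89, SE 0.58 (edgeR adjusted p = 0.078), and E2f2 to E2f6 lay between -0.17 and 0.26 without a call. Rbl1 (p107), a pocket protein that binds E2F factors, rose by 1.56 (SE 0.13).

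Cyclins D1 to D3, which respond to growth factors, were not called (Ccnd1 -0.21, SE 0.22, Ccnd2 0.20, SE 0.27, Ccnd3 0.35, SE 0.19). Their kinase partners moved in opposite directions. Cdk6 was 109, 68.0 and 100.1 CPM in untreated and 49.0, 44.0 and 55.2 CPM in mL hepatocytes and was called lower (-0.90, SE 0.19), and Cdk4 was called higher (0.45, SE 0.12). The inhibitors of cyclin kinases Cdkn1a (p21) and Cdkn1b (p27) were called higher by 0.43 (SE 0.09) and 0.65 (SE 0.13). In all, 11 of 25 tested genes of this list (27 listed) were called higher and 1 lower, with a median of 0.43. Without mouse 1, 2 or 3 there were 8, 9 and 5 called higher, with only the conditions of the contrast in the fit 5 and with the effective length offset 4. E2f8, Cdc25a and Cdkn1b were not called without mouse 3 (1.86, 1.13 and 0.58), Cdk6 without mouse 2 or 3 (-1.02 and -0.95), Cdkn1a without mouse 1 or 3 (0.31 and 0.38) and Cdk4 without each of the 3 mice in turn (from 0.39 to 0.54).

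Of the genes that act at the replication fork 17 of 24 were called higher and 0 lower, with a median of 0.91. Pcna, the sliding clamp of DNA polymerases, was 64.0, 83.8 and 71.7 CPM in untreated and 159, 129.5 and 163 CPM in mL hepatocytes, with no overlap (1.03, SE 0.14; edgeR adjusted p = 8.8e-05). The largest called changes were those of the fork factors Wdhd1 (1.90, SE 0.16) and Timeless (1.82, SE 0.29), the DNA ligase Lig1 (1.72, SE 0.12) and the polymerase epsilon subunits Pole (1.39, SE 0.29) and Pole2 (1.34, SE 0.36). Rpa1 and Rpa2, which coat single-stranded DNA, rose by 0.92 (SE 0.09) and 1.3 (SE 0.18). Of the enzymes that supply deoxynucleotides 5 of 12 were called higher and 0 lower, with a median of 0.55. Among them were Rrm1, the large subunit of ribonucleotide reductase (1.35, SE 0.13), the dUTPase Dut (1.32, SE 0.14) and thymidylate synthase Tyms (1.04, SE 0.16). The small subunit Rrm2 gave 0.25, SE 0.20 (edgeR adjusted p = 0.67) and was not called. Without mouse 3 the fork list had 6 called members in place of 17 and the deoxynucleotide list 3 in place of 5, and with the effective length offset they had 1 and 0. Pcna and Timeless were not called without mouse 3 (0.92 and 1.51), Pole without mouse 2 or 3 (1.27 and 1.33) and Pole2 without each of the 3 mice in turn (from 1.19 to 1.55).

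Of the chromatin factors that follow the fork 11 of 18 were called higher and 0 lower, with a median of 0.88. Uhrf1, which recruits the maintenance DNA methyltransferase, was 7.03, 1.57 and 1.42 CPM in untreated and 30.4, 11 and 30.3 CPM in mL hepatocytes (2.87, SE 0.32; edgeR adjusted p = 4.5e-06). Chaf1b, a subunit of the histone chaperone CAF-1, was 5.74, 7.27 and 5.44 CPM in untreated and 31.9, 30.1 and 36.7 CPM in mL hepatocytes (2.41, SE 0.19). The groups did not overlap for either gene, and the untreated level of Uhrf1 was highest in mouse 1. Chaf1a, another CAF-1 subunit, rose by 1.20 (SE 0.22), the methyltransferase Dnmt1 by 0.83 (SE 0.15), and Hells and Atad2, which act on nucleosomes, by 1.39 (SE 0.17) and 1.33 (SE 0.14).

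Of the checkpoint and recombination genes 8 of 18 tested (30 listed) were called higher and 0 lower, with a median of 0.77. Beside Chek1 they included Wee1, the kinase that inhibits Cdk1 and Cdk2 (1.51, SE 0.12), Brca2, which acts in homologous recombination (1.61, SE 0.25), the mismatch repair gene Msh6 (1.38, SE 0.09) and Topbp1, which activates the kinase Atr (0.95, SE 0.09). Atr and Atm, the kinases at the head of these pathways, gave -0.07 (SE 0.17) and 0.16 (SE 0.24) and were not called. Without mouse 3 the chromatin and checkpoint lists had 6 and 5 called members, with the effective length offset 3 and 2, and Chaf1a and Brca2 were not called without mouse 3 (0.77 and 1.55). Dnmt1 was not called without mouse 2 or 3 (0.90 and 0.62).

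Genes of G2 and mitosis had too few reads for most tests. Only 5 of 25 listed genes were tested, and Cdk1, the mitotic kinase, was called higher. Cdk1 was 0.693, 0.525 and 0.522 CPM in untreated and 4.802, 0.407 and 4.82 CPM in mL hepatocytes, so that mice 1 and 3 were far above the untreated samples and mouse 2 below them (2.30, SE 0.46; edgeR adjusted p = 0.0039). It was not called without mouse 1 or 3 (2.03 and 1.72) or with the effective length offset (1.25). Mki67, a marker of cycling cells, was 3.76, 0.675 and 0.447 CPM in untreated and 5.83, 0.815 and 0.778 CPM in mL hepatocytes (0.59, SE 0.54; edgeR adjusted p = 0.73), and the groups overlapped. The topoisomerase Top2a gave 1.34, SE 0.68 (edgeR adjusted p = 0.38). The 20 genes that were not tested, among them Ccna2, Ccnb1, Plk1, Foxm1 and Birc5, together held 205.5 reads in the 6 untreated libraries (5.55 CPM) and 94.6 reads in the 3 mL libraries (5.32 CPM). Differences in single genes of this group were not detectable at this depth.

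**Figure D2:**
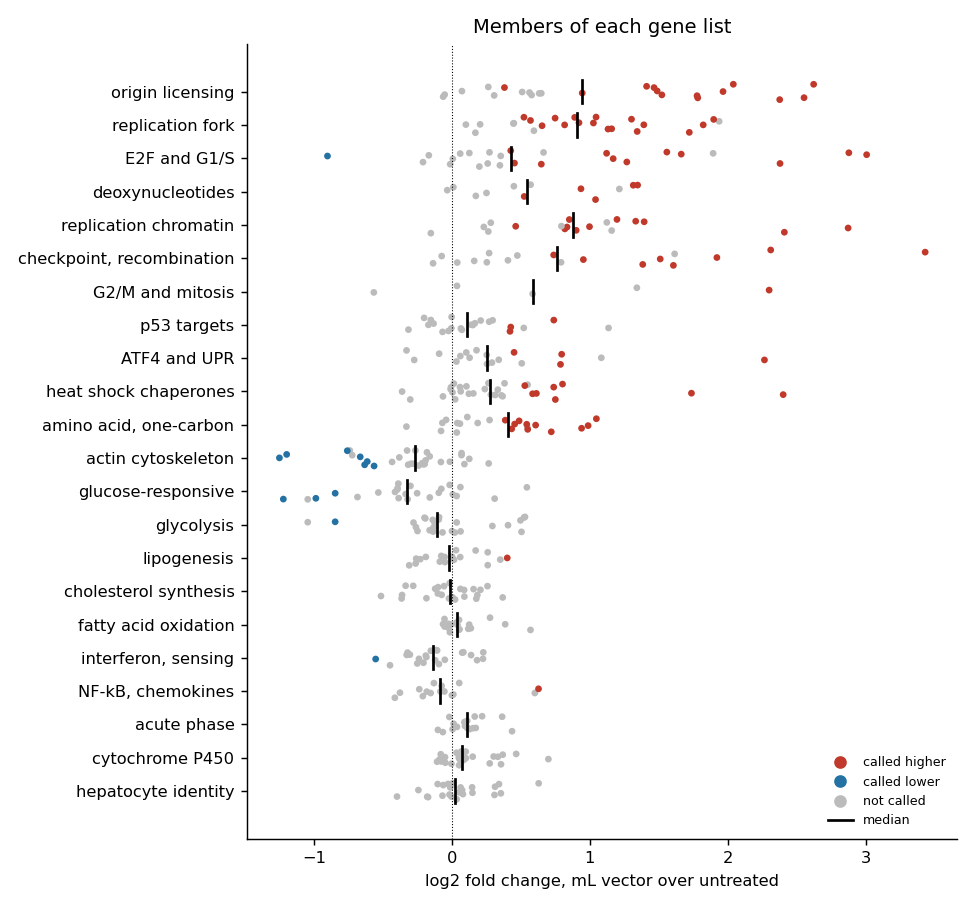
Log2 fold change (mL vector over untreated, 3 mice each) of the tested members of the gene lists, with called genes marked by colour and the median of each list as a line. The medians of the licensing, fork, chromatin and checkpoint lists lie between 0.77 and 0.94, and that of hepatocyte identity genes at 0.02.

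Chaperones were another group of increases. The list of 30 chaperone genes was drawn up after their values had been seen, so its counts only describe it. All 30 were tested, 8 were called higher and 0 lower, with a median of 0.27. Hspa8 (chromosome 9 from 40711630 to 40731039, GRCm39), the constitutive Hsp70, was 4661, 2324 and 2594 CPM in untreated and 7127, 3663 and 5679 CPM in mL hepatocytes. The groups overlapped because mouse 1 was high in both, but the level in CPM rose in each mouse, with a log2 fold change of 0.80 (SE 0.08; edgeR adjusted p = 8.5e-07). Hsp90aa1, the inducible Hsp90, was 1008, 816 and 981 CPM in untreated and 1631, 1127 and 1485 CPM in mL hepatocytes, without overlap (0.58, SE 0.09). In TPM, whose effective lengths differed between libraries, Hspa8 was lower with mL in mouse 2 (6480 untreated, 4210 mL). It was higher in mice 1 and 3. Hsp90aa1 in TPM was lower with mL in mouse 1 (1850 and 1380) and mouse 3 (1720 and 1670). It was higher in mouse 2 (610 and 1820). Hsph1, Dnajb1 and Dnaja1, which assist Hsp70, rose by 0.74 (SE 0.09), 0.75 (SE 0.12) and 0.61 (SE 0.12), and Fkbp4, which assists Hsp90, by 0.53 (SE 0.10).

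The inducible Hsp70 genes Hspa1a and Hspa1b had larger changes at lower levels, but they are near-identical copies between which reads can be split. Hspa1a was 0.594, 0.900 and 0.894 CPM in untreated and 7.20, 2.04 and 4.98 CPM in mL hepatocytes (2.40, SE 0.56), and Hspa1b was 20.1, 14.2 and 7.97 CPM in untreated and 112, 15.7 and 45.4 CPM in mL hepatocytes (1.74, SE 0.41). Only Hspa1a separated the groups. Chaperones of the endoplasmic reticulum were not called, with Hspa5 at -0.09 (SE 0.09) and Hsp90b1 at 0.13 (SE 0.09). Hspa1a was not called without each of the 3 mice in turn (from 1.92 to 2.92), Hspa1b without mouse 1 or 3 (1.32 and 1.37), Hsp90aa1 and Dnajb1 without mouse 3 (0.55 and 0.64) and Dnaja1 without mouse 2 or 3 (0.54 and 0.57). Fkbp4 was not called without mouse 3 (0.36). Without mouse 1, 2 or 3 there were 7, 6 and 2 chaperones called higher, without the mouse in the model and with the effective length offset 0, and with only the conditions of the contrast in the fit 1.

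Of the 18 genes of Atf4 and the unfolded protein response 4 were called higher and 0 lower, with a median of 0.25. Chac1, which degrades glutathione, was 3.76, 2.92 and 2.46 CPM in untreated and 17.5, 8.15 and 21.8 CPM in mL hepatocytes, with no overlap (2.27, SE 0.34; edgeR adjusted p = 2.5e-04). The pseudokinase Trib3, the factor Ddit3 (CHOP) and Atf4 itself rose by 0.80 (SE 0.20), 0.79 (SE 0.18) and 0.45 (SE 0.10). The amino acid enzymes Asns (0.51, SE 0.15; edgeR adjusted p = 0.073) and Phgdh (1.08, SE 0.31; adjusted p = 0.056) were not called, and Phgdh was called without mouse 2 (1.74). In a list of 22 genes of amino acid uptake, one-carbon metabolism and nucleotide synthesis, also drawn up after their values had been seen, 11 were called higher and 0 lower, with a median of 0.41. They included Mthfd2 of the mitochondrial folate pathway (1.05, SE 0.19), the arginine transporter Slc7a1 (0.99, SE 0.25) and Paics of purine synthesis (0.45, SE 0.09). Without mouse 1, 2 or 3 this list had 9, 4 and 0 called genes and the Atf4 list 3, 3 and 1, and with the effective length offset they had 0 and 1. Trib3 was not called without mouse 1 or 3 (0.71 and 0.52), Ddit3 and Atf4 without mouse 2 or 3 (0.88 and 0.57 for Ddit3, 0.47 and 0.34 for Atf4), Mthfd2 without mouse 3 (0.78), and Slc7a1 and Paics without mouse 2 or 3 (1.10 and 0.50 for Slc7a1, 0.38 and 0.45 for Paics).

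**Figure D3:**
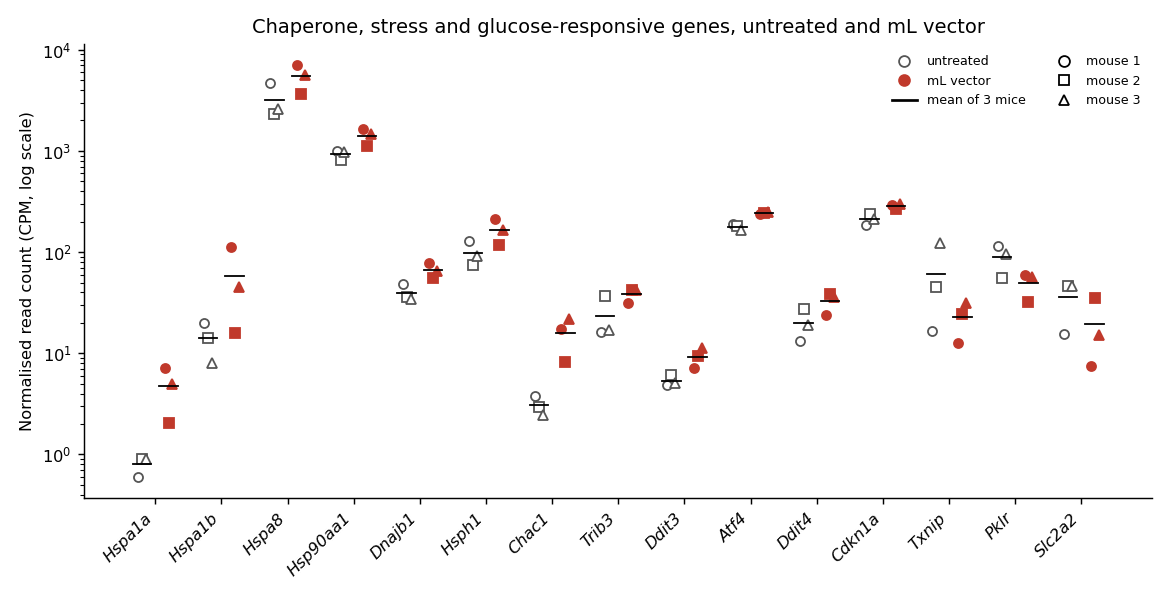
Normalised read count (CPM, log axis) of 15 chaperone, stress, p53-target and glucose-related genes in untreated hepatocytes and with the mL vector, by mouse, with the mean of 3 mice as a line. Chac1 separates the groups, Hspa8 rises within each mouse while the groups overlap, and Txnip and Slc2a2 are lower with the mL vector in each mouse.

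Of 22 p53 targets 3 were called higher and 0 lower, with a median of 0.11. Beside Cdkn1a these were Ddit4, an inhibitor of mTORC1 (0.74, SE 0.16), and Mdm2, the ubiquitin ligase of p53 (0.42, SE 0.08). There were 1, 2 and 0 p53 targets called higher without mouse 1, 2 or 3. Of 22 tested genes of interferon response and nucleic acid sensing 0 were called higher and 1 lower, with a median of -0.14, the RNA sensor Rigi (-0.55, SE 0.13). The list of NF-kB and chemokine genes had 1 of 15 called higher, Tnfaip2 (0.63, SE 0.17), and a median of -0.08, and the acute phase list 0 of 19. Over all genes tested 2.49% were called higher and 0.673% lower, so 0 or 1 calls in lists of 15 to 22 genes is near that background. Ddit4 was not called without mouse 1 or 3 (0.69 and 0.61), Mdm2 and Rigi without mouse 2 or 3 (0.34 and 0.43 for Mdm2, -0.54 and -0.56 for Rigi) and Tnfaip2 without each of the 3 mice in turn (from 0.52 to 0.72).

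Other hexokinases and glucose-responsive genes were examined because GKRP acts on GK. The log2 fold changes of Hk1, Hk2, Hk3 and Hkdc1 were -0.01, 0.06, 0.15 and 0.26, without a call. Of 24 tested glucose-responsive genes (26 listed, among them genes the study chose on these same cultures, which makes the list no independent evidence), 0 were called higher and 3 lower, with a median of -0.33. Txnip (chromosome 3 from 96465267 to 96469201, GRCm39), an arrestin-like gene induced by glucose, was 16.6, 44.8 and 122.6 CPM in untreated and 12.5, 24.6 and 31.6 CPM in mL hepatocytes. It was lower in each mouse, although the groups overlapped (-1.22, SE 0.30; edgeR adjusted p = 0.019). Pklr, the liver pyruvate kinase, was 115, 55.5 and 96.7 CPM in untreated and 59.0, 31.8 and 57.0 CPM in mL hepatocytes (-0.85, SE 0.15; adjusted p = 0.0011). Slc2a2, the hepatocyte glucose transporter, was 15.3, 45.9 and 45.8 CPM in untreated and 7.55, 35.2 and 15.1 CPM in mL hepatocytes (-0.99, SE 0.27; adjusted p = 0.043). Both were lower in each mouse, with overlap between the groups. With mouse 1, 2 or 3 left out 3, 1 and 0 were called lower, and with the effective length offset 0. Txnip was not called without mouse 2 or 3 (-1.37 and -0.68), Pklr without mouse 3 (-0.92) and Slc2a2 without each of the 3 mice in turn (from -1.36 to -0.66). The signalling regulator Rgs16 (-0.69, SE 0.39) and G6pc1, the catalytic subunit of glucose-6-phosphatase (-1.05, SE 0.56), did not pass the test.

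Metabolic and identity genes of the hepatocyte had few calls. The lists of cholesterol synthesis (26 tested), fatty acid oxidation (19), sterol efflux and bile acids (18), cytochrome P450 (26), hepatocyte identity (24) and major urinary proteins (13) had 0 genes called by edgeR, with medians between -0.04 and 0.11. Over all genes tested 2.49% were called higher and 0.673% lower, so 0 calls in lists of 13 to 26 genes is near that background. At an unadjusted p under 0.05 edgeR had 8.24% of all genes higher and 6.22% lower. Of 18 tested lipogenic genes the fatty acid elongase Elovl5 was called higher (0.40, SE 0.07) and 0 lower, and Elovl5 was not called without mouse 3 (0.36) or with the effective length offset (0.05). Alb was 67700, 102400 and 94920 CPM in untreated and 69530, 122100 and 90260 CPM in mL hepatocytes (0.07, SE 0.09), with overlapping groups.

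Fewer genes were called lower. Among protein-coding genes with reads in every mL library, Trp53inp2, an autophagy factor, had the largest called decrease. It was 32.1, 47.8 and 45.1 CPM in untreated and 11.3, 26.7 and 15.1 CPM in mL hepatocytes, with no overlap (-1.32, SE 0.17; edgeR adjusted p = 2.6e-05). Of 31 tested genes of the actin cytoskeleton, a list drawn up after their values had been seen, 7 were called lower and 0 higher, with a median of -0.27. Leaving out mouse 1, 2 or 3 gave 3, 2 and 1 called lower, without the mouse in the model 1, and with only the conditions of the contrast in the fit or with the effective length offset 0. Tpm2 (tropomyosin 2) was 78.9, 89.8 and 89.8 CPM in untreated and 18.7, 48.3 and 57.0 CPM in mL hepatocytes (-1.20, SE 0.19). The groups did not overlap, and the lowest mL value was that of mouse 1. Flnc (filamin C) and the actin crosslinker Actn1 were called lower as well (-1.25, SE 0.35 and -0.67, SE 0.15). Flnc was not called without mouse 2 or 3 (-1.21 and -1.60) and Actn1 without each of the 3 mice in turn (from -0.87 to -0.44).

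The genes with the largest fitted decreases, Ftl2-ps, Gm4294, Pa2g4 and Gm48269, were listed at 0 reads in the 3 mL libraries, and no fold is given for them because reads can be assigned to a near-identical copy. Ftl2-ps, a processed pseudogene, was 0.323 and 929 CPM in the 2 untreated cultures of mouse 1, 286 and 0 CPM in those of mouse 2 and 101.1 and 0.130 CPM in those of mouse 3. Cultures of the same mouse and treatment thus differed as much as the treatments did. The pseudogene Gm14448 showed the opposite, with 0, 0.0750 and 0 CPM in untreated and 6.52, 5.91 and 5.45 CPM in mL hepatocytes, and is uncertain for the same reason.

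To ask what depends on residue 446, the mL vector was compared with the mP vector. Gckr was 14280 ± 3006 CPM with mL and 17630 ± 4857 CPM with mP (SD, n = 3), a log2 difference of -0.28 (SE 0.55) without a call. By edgeR 0 of 12177 genes (0%) were called in either direction, with 2.29% of genes higher and 1.45% lower at an unadjusted p under 0.05, and DESeq2 called 13 higher and 8 lower. Of these 21 genes 19 had log2 differences over 5 in size and 16 were pseudogenes or predicted genes, and those with smaller differences were Hspa8 and Ddit4. The differences of replication genes were -0.05 (SE 0.11) for Mcm4, 0.00 (SE 0.21) for Ccne1 and -0.27 (SE 0.29) for Chek1, and the median of the licensing list was -0.02.

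Hspa8 was 5490 ± 1740 CPM with mL and 4082 ± 1395 CPM with mP (SD, n = 3), a difference of 0.44 (SE 0.08). This had an adjusted p of 0.23 by edgeR and of 1.0e-04 by DESeq2. The chaperone list was drawn up after values of these mL cultures had been seen, so its counts here only describe it. Of the 30 chaperones 26 were higher with mL than with mP, with a median of 0.22, and 12 were higher and 0 lower at an unadjusted p under 0.05. Among these 12 were Hsph1 (0.36, SE 0.09), Hsp90aa1 (0.35, SE 0.09) and Hsp90ab1 (0.27, SE 0.06). Chaperones were not the only list with such differences. Of the 18 genes of Atf4 and the unfolded protein response 12 were higher with mL, 5 of them at that p, with 0 lower at it. Of 22 tested genes of interferon response and nucleic acid sensing only 1 was higher with mL (median -0.16), with 0 higher and 1 lower at that p. Ddit4 was 32.7 ± 7.79 CPM with mL and 18.7 ± 5.13 CPM with mP (0.81, SE 0.16; edgeR adjusted p = 0.32; DESeq2 adjusted p = 0.0037). Neither Hspa8 nor Ddit4 was thus called by the main test, and each was called by the other tool.

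The other vectors were compared with the same untreated cultures, so their values stand beside those of mL and share its controls. The mP, hL and hP vectors had 2.41%, 2.51% and 1.95% of genes called higher, and the GK vector alone 0.345%. Called lower were 0.895%, 0.46%, 0.501% and 0.0164%. In the order mL, mP, hL, hP and GK alone, the log2 fold change of Mcm4 was 2.55, 2.61, 2.35, 2.41 and 0.35, and that of Ccne1 was 3.01, 3.00, 2.63, 2.74 and 0.56. Hspa8 was at 0.80, 0.37, 0.53, 0.38 and -0.13 in this order. Ddit4 was at 0.74, -0.07, 0.88, 0.07 and 0.29. Txnip was at -1.22, -1.53, -1.57, -1.44 and 2.09, so that only the GK vector had a positive value.

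**Figure D4:**
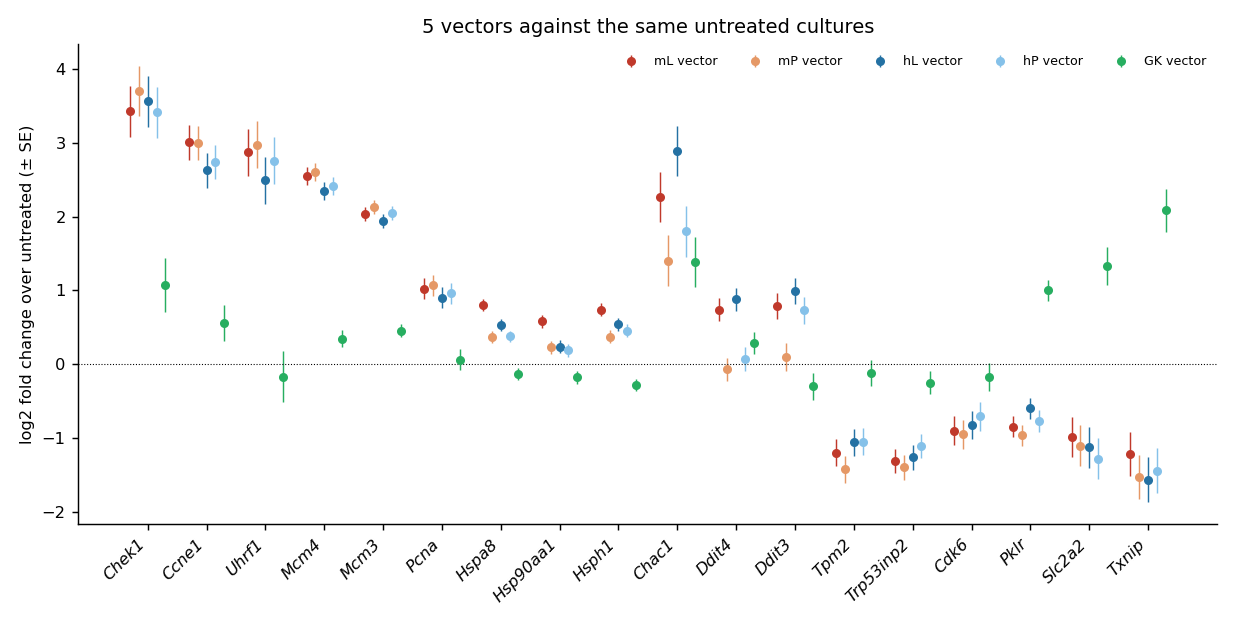
Log2 fold change over the same untreated cultures, with its SE as bars, of 18 genes for the mL, mP, hL, hP and GK vectors (3 mice each). For Mcm4 the GKRP vectors lie between 2.35 and 2.61 and the GK vector at 0.35, whereas for Txnip the GKRP vectors lie below 0 and the GK vector at 2.09.

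The mL and hL vectors carry the mouse and the human form of GKRP-446L. Between them edgeR called 1 gene (0.00821% of those tested), Gckr itself (7.62, SE 0.74; adjusted p = 1.2e-05), and DESeq2 21 higher and 12 lower. At an unadjusted p under 0.05 edgeR had 3.88% of genes higher and 3.42% lower. The difference of Hspa8 was 0.27 (SE 0.08; edgeR adjusted p = 0.39) and that of Hsp90aa1 0.35 (SE 0.09; adjusted p = 0.28).

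The mL vector was also compared with the GK vector alone (6 cultures, 2 per mouse), an adenoviral vector with another insert. Replication genes were again higher with mL and glucose-responsive genes lower. With mL 369 genes (3.03%) were called higher and 185 (1.52%) lower (9.51% and 8.88% at an unadjusted p under 0.05), and of 23 licensing genes 14 were called higher and of 24 glucose-responsive genes 17 lower. Mcm4 was 66.7 ± 16.0 CPM with mL and 14.3 ± 3.43 CPM with GK (SD, n = 3; 2.21, SE 0.12; edgeR adjusted p = 2.1e-10). Uhrf1 was 23.9 ± 11.2 and 2.94 ± 1.70 CPM (3.04, SE 0.32). Hspa8 was higher by 0.93 (SE 0.08) and 11 of the 30 chaperones were called higher. Txnip was 22.9 ± 9.65 CPM with mL and 239 ± 127 CPM with GK (-3.31, SE 0.31; edgeR adjusted p = 3.3e-07). The differences of Rgs16, G6pc1 and Angptl8 were -3.09, -3.65 and -2.51. The glucose-responsive list holds genes that the study chose on these same cultures for their rise with the GK vector. With the GK vector alone 16 of the 24 were called higher than in untreated hepatocytes. Lower values with mL than with GK are therefore no independent evidence for these genes. The effects of both inserts and of any difference in vector dose cannot be told apart in these differences. Without mouse 1, 2 or 3 the calls were 264, 169 and 84 higher and 170, 94 and 54 lower, without the mouse in the model 115 and 43, and with the effective length offset 11 and 9.

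Finally, the effect of the mL vector at endogenous GK was tested against its effect with GK overexpressed (mL with GK against GK alone). By edgeR 0 of 12177 genes (0%) were called different, with 1.78% of genes higher and 1.7% lower at an unadjusted p under 0.05. DESeq2 called 26 higher and 1 lower, of which 24 were pseudogenes or predicted genes. Of 23 licensing genes 7 had a positive difference, and 0 were higher and 4 lower at that unadjusted p by edgeR (median -0.04). Of 18 checkpoint and recombination genes 6 were positive, with 0 higher and 3 lower. Of 24 fork genes 5 were positive, with 0 higher and 0 lower. Of 12 deoxynucleotide genes 6 were positive, with 1 higher and 0 lower. With GK overexpressed 1.79% of genes were called higher with the mL vector and 0.452% lower, and its effect was 2.05 (SE 0.12) for Mcm4, 2.22 (SE 0.22) for Ccne1 and 0.79 (SE 0.08) for Hspa8. The differences from the effect at endogenous GK were -0.50 (SE 0.16; edgeR adjusted p = 1.0), -0.79 (SE 0.32; adjusted p = 1.0) and -0.01 (SE 0.11; adjusted p = 1.0). For the glucose-responsive genes the median effect of the mL vector was -0.33 at endogenous GK and -0.52 with GK overexpressed. Of the 24 tested, 8 had a positive difference, and 0 were higher and 4 lower at that unadjusted p (median -0.08). The list holds genes that the study chose on these same cultures, so these values only describe it.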

How the data were processed

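RNA of 36 hepatocyte cultures was sequenced by the study. The authors quantified transcripts with Salmon (version 1.4.0 in the submitters' processing notes), and the deposited files hold estimated (expected) counts, TPM and effective lengths per transcript. The deposited estimated counts were summed here to genes with Gencode M39 gene names, which matched 98.8% of transcripts, rounded to whole numbers, and summed over cultures of the same mouse and condition. TPM values were the authors' own, summed to genes and used only to describe levels, not for tests. Unmatched transcripts held 0.409 to 0.639% of reads in the 9 libraries and were left out.

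All 30 samples of 10 conditions were fitted with edgeR 4.0.16 (R 4.3.3; TMM normalization, factors 0.901 to 1.09; filterByExpr by condition) with condition and mouse as terms, and each SE is the log2 fold change divided by the square root of F. Samples were paired by the mouse their hepatocytes came from, not by replicate number. Deviations of samples of the same mouse from the group means correlated by 0.414, 0.254 and 0.166 in mice 1, 2 and 3. On simulated data with 200 of 12033 genes changed 2-fold in the comparison of mL with untreated, 68% were recovered and 3.55% of calls were false. The simulated counts were drawn with the fitted dispersions, with only the mL condition changed. These shares therefore describe the method under its own model and do not measure the error of the calls on the real data. The p-values measure the spread that remains after the condition and mouse terms, estimated over all 10 conditions of the same 3 mice.

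The members and gene lists were chosen with earlier results of these data known. The genes named were Gckr and hexokinases, the 12 largest increases, the 10 largest decreases and the 6 genes with the highest mean level among called genes that moved the same way in 3 of 3 mice, up to 5 called members per list together with members of high level or defining role, and the called genes with the largest change in the other comparisons. Most but not all of these are described, and some genes are not reported here. Alternatives were DESeq2 1.42.0, RLE normalization, other filters, fewer conditions, single cultures, an effective length offset, no mouse term, no fold threshold and leaving out each mouse.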

Additional observations from a re-analysis of the deposited data

Results flagged for a closer look

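In 7 of 151 genes examined, 1 of the 6 untreated cultures stood apart from the other 5 by Dixon's criterion, which flags about 1 in 20 groups by chance. The culture set apart was not always the same. It was the highest for Ddit3 (7.62 CPM), Pole2 (2.47 CPM), Ftl2-ps (929 CPM), Gm14448 (0.156 CPM) and Gm48269 (4.81 CPM). It was the lowest for Cdc25a (4.55 CPM) and Timeless (0.352 CPM).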

How the results depend on the processing

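For mL against untreated hepatocytes, 303 genes called higher became 111 without the replicate block (no mouse term), 192 with no filter on low counts, 61 with only the conditions of the contrast in the fit and 23 with the effective length offset, and 75 to 202 when each mouse was left out. The 82 called lower became 17 without the block, 25 with only those conditions, 0 with the length offset and 150 with no fold threshold, and 12 to 62 with each mouse left out. All 111 and 17 genes called without the block were among the main calls, and mouse 3 left out kept 73 of the 303 and 10 of the 82. DESeq2 called 314 and 122 and RLE normalization gave 295 and 88, and a fit of only the 5 conditions of endogenous GK, chosen after seeing the data, 280 and 112. For mL against the GK vector, 369 higher became 115 without the block, 208 with no filter, 209 with only those conditions, 11 with the length offset and 84 to 264 with a mouse left out, and 185 lower became 43, 9 (length offset), 335 (no fold threshold) and 54 to 170 (a mouse left out). For mL against mP, 0 became 13 higher and 8 lower with DESeq2 and 2 higher with only those conditions. For mL against hL, 1 higher and 0 lower became 21 and 12 with DESeq2, 3 higher with only those conditions, and 1 to 2 higher and 0 to 1 lower with a mouse left out. The difference in mL effect with GK went from 0 to 26 higher and 1 lower with DESeq2. Of 97 called genes examined one by one, 92 kept their call with DESeq2, 96 with RLE, 42 without the block, 73, 64 and 37 without mouse 1, 2 and 3, and 16 with the length offset. The dispersion rose with the offset (biological coefficient of variation 0.454, from 0.231), and the cause was not tested. Aldh18a1 alone changed direction, to -0.033 with the offset. With 3 mice and 3924674 to 7678682 reads per library, 20 of the 25 listed mitotic genes had too few reads to be tested.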
